A study of Capra hircus with 11 samples.

Results

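The miR-23, miR-24 and miR-27 miRNAs were followed in the omental fat of lactating Alpine goats. They were taken by name, as every listed bovine mature miRNA numbered 23, 24 or 27 with any letter or arm, which gave 8 of the 637 listed names. These were bta-miR-23a, bta-miR-23b-3p, bta-miR-23b-5p, bta-miR-24-3p, bta-miR-24 (listed without an arm), bta-miR-27a-3p, bta-miR-27a-5p and bta-miR-27b, and the bovine prefix is dropped from here on. All goats were lactating, at 48 ± 2 days after kidding, and had eaten a hay-based ration of 35% forage and 65% concentrate for 2 weeks. The control group (n = 5) kept this diet without restriction up to slaughter, and the feed-deprived group (n = 6) received no feed for the last 48 h. Small RNA of the whole tissue was sequenced, 1 library per goat, so that a smaller number of cells of a type and less RNA per cell cannot be told apart.

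These miRNAs come from 2 clusters of hairpins, each processed from one primary transcript. One cluster holds miR-23a, miR-27a and a copy of miR-24, the other holds miR-23b, miR-27b and a further copy of miR-24, and the copies give the same miR-24-3p. Each hairpin can release a 5p and a 3p mature strand, of which one is usually kept and the other largely degraded. The a and b forms share their seed, the stretch that selects target messages, and differ little elsewhere. miR-27 is known in mouse and human cells for repressing PPARG, the main regulator of fat cell formation, and other genes of lipid handling. miR-24 is known for repressing cell-cycle genes such as E2F2.

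In the goat gene table of RefSeq (assembly ARS1.2), MIR23A and MIR27A were direct neighbours, and both lay within the span of ZSWIM4, with MIR181C and MIR181D as the next miRNA genes. MIR23B, MIR27B and MIR24 were neighbours on another chromosome, within the span of C8H9orf3. The 1 MIR24 entry of this table was in the second group. A read of miR-24-3p therefore has no cluster of origin that its name can give.

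The libraries held 16974441 to 25389788 miRNA reads, recovered from the deposited signal, in which each library's whole reads had been rescaled by a common factor. These rescaled values are called normalised reads here. Of the 8 miRNAs, 7 passed the filter on low counts and were among the 360 miRNAs tested. miR-23b-5p did not pass. Feed-deprived replicate 1 stands apart for several values below, and the results that rest on it are given with and without it. Over all tested miRNAs its median deviation from the rest of its group was 0.37 on the log2 scale. That was the largest of its group, where the other goats had 0.26 to 0.34. The controls had 0.25 to 0.39, and only control replicate 2 lay higher.

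Feed deprivation left the 7 tested miRNAs without a call. None of the 7 passed an adjusted p of 0.05 in limma, in either direction. Over all 360 miRNAs 3 passed as higher (0.833%) and 0 as lower (0%), and 42 had an unadjusted p under 0.05 (11.7%), of which miR-27a-5p was the only member in this fit. With upper-quartile factors, where 52 of the 360 were under 0.05, miR-23b-3p (limma unadjusted p = 0.017) and miR-24-3p (limma unadjusted p = 0.0075) were too. The unadjusted p of miR-23b-3p was 0.032 in edgeR, 0.045 in DESeq2 and 0.047 in voom. None of these passed after adjustment. DESeq2 on the recovered reads called 9 of the 360 higher (2.5%), with no member among them. It gave no p for miR-27a-5p, which could therefore not be called there. Of the 7, 3 had a positive log2 fold change, against 50.8% of all tested miRNAs, and the count was 5 with library totals and 1 with upper-quartile factors. The median log2 fold change of all tested miRNAs was 0.0040. miR-27a-5p, the minor arm of its hairpin, was the one member whose groups did not overlap, and it was higher in 6 of 6 feed-deprived goats. Among the abundant members, miR-23b-3p and miR-24-3p had the lowest values.

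**Figure D1:**
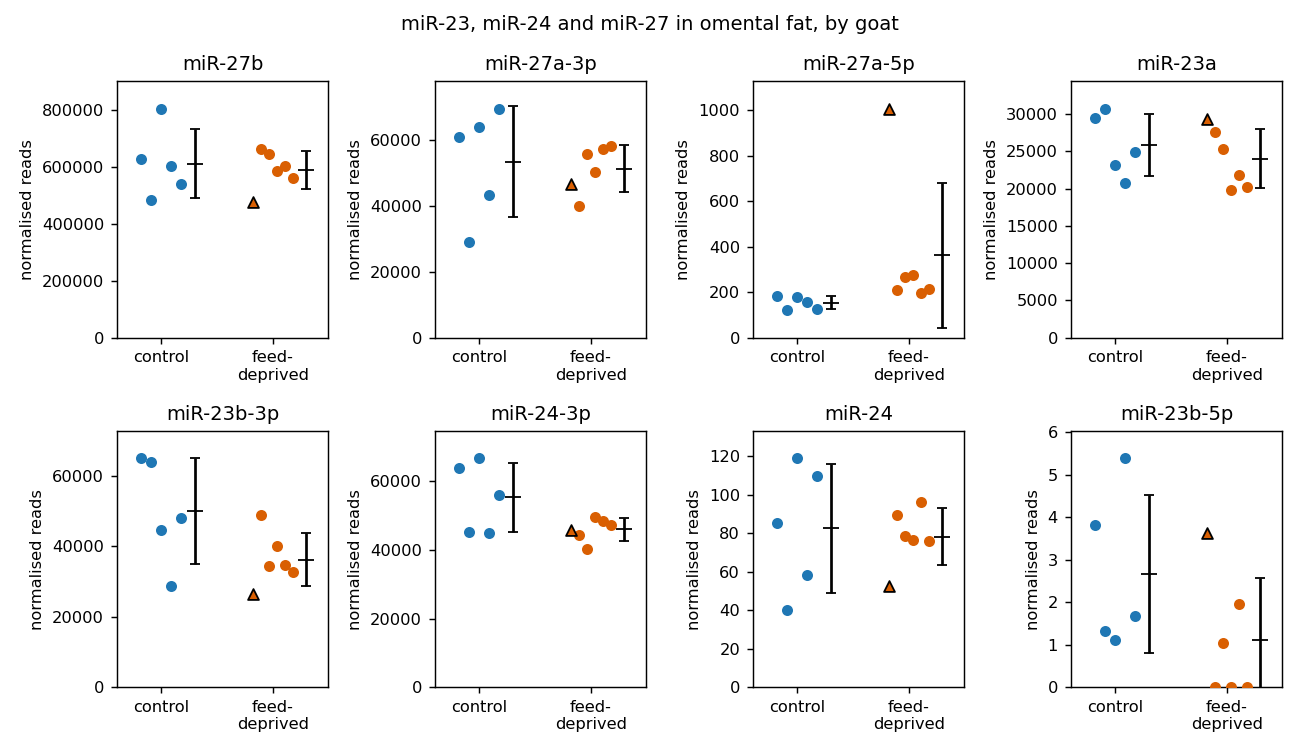
Normalised reads of the 8 miRNAs in each goat (points; the triangle is feed-deprived replicate 1), with the group mean and SD (black bars), on linear axes that start at 0. For miR-27a-5p the feed-deprived goats lie at 199 or more and the controls at 184 or less, while the other 7 panels show overlapping groups.

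miR-27b, the form tied to PPARG that comes from the second cluster, was by far the most abundant member. The controls had 628077, 482679, 805157, 604729 and 539443 normalised reads (replicates 1 to 5). The feed-deprived goats ran from 475571 through a median of 593999 to 663452. Apart from feed-deprived replicate 1, the lowest of all 11, the feed-deprived goats lay inside the range of the controls. miR-27b took 2.79% ± 0.407 of all miRNA reads in control goats (SD, n = 5) and 3.02% ± 0.376 in feed-deprived goats (SD, n = 6). It ranked 6 among the 637 listed miRNAs and made up 73.1% to 81.4% of the reads of all 8 members, depending on the library. The groups differed by -0.04 ± 0.141 on the log2 scale (SE; limma, adjusted p = 0.984), with a 95% interval of -0.35 to 0.26. The value was positive with library totals as the only scaling (0.12), without control replicate 3 (0.06) and without feed-deprived replicate 1 (0.02).

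miR-27a-3p, the paralog from the first cluster, ranked 38. The controls had 61012, 28907, 63960, 43363 and 69526 normalised reads. The feed-deprived goats ran from 40036 through 52945 to 58082. The controls were therefore spread on both sides of the feed-deprived goats, with control replicate 2 lowest and control replicate 5 highest of all 11. Their log2 difference was 0.0012 ± 0.210 (SE; limma, adjusted p = 0.996), with a 95% interval of -0.45 to 0.45. Without control replicate 2 it was -0.20 (limma adjusted p = 0.758).

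The level of miR-27b exceeded that of miR-27a-3p in all 11 libraries. In controls miR-27b had 11.9 times the reads of miR-27a-3p, taken as a geometric mean, and after feed deprivation 11.5 times. miR-27a-3p held 7.99% ± 2.24 of the reads of this pair in control goats (SD, n = 5) and 8.09% ± 1.30 in feed-deprived goats (SD, n = 6). The log2 ratio of miR-27a-3p to miR-27b differed between the groups by 0.04 (exact two-sided permutation test over all splits of the goats into 5 and 6, p = 0.842, adjusted p = 0.842 over 5 ratios), higher after feed deprivation with all libraries and lower without control replicate 2 or 4 or feed-deprived replicate 6. The sum of both forms was 665370 ± 131534 normalised reads in control goats and 640068 ± 66816 in feed-deprived goats. Adapter ligation favours some small RNA sequences, so these multiples rank the reads of this protocol and are no molar amounts.

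miR-27a-5p, the other arm of the hairpin that gives miR-27a-3p, was the member that differed most between the groups. The controls had 184, 124, 178, 156 and 127 normalised reads. The feed-deprived goats ran from 199 through 242 to 1008. Every feed-deprived goat lay above every control, and feed-deprived replicate 1 stood at 4.32 times the mean of the other 5 feed-deprived goats. The log2 fold change was 0.96 ± 0.369 (SE, limma unadjusted p = 0.0216, adjusted p = 0.324), which did not pass. Without feed-deprived replicate 1 the log2 fold change was 0.61 ± 0.196 (SE, limma unadjusted p = 0.0090, adjusted p = 0.270).

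Group means of miR-27a-5p were 154 ± 28.1 normalised reads in control goats (SD, n = 5) and 363 ± 318 in feed-deprived goats (SD, n = 6), or 234 ± 35.8 without feed-deprived replicate 1 (SD, n = 5). The ratio of the means was 2.36 with all goats and 1.52 without that goat. The values rested on 93 to 159 reads per control library and on 202 to 1661 per feed-deprived library. Of the 360 tested miRNAs, 6 (1.67%) had all feed-deprived goats above all controls and 0 (0%) had all of them below. The 6 were miR-27a-5p, miR-431, miR-541, miR-142-5p, miR-665 and miR-132. Leaving out feed-deprived replicate 1 cannot remove any of the 6, and it added no further miRNA above all controls. edgeR on the recovered reads gave miR-27a-5p a log2 fold change of 1.22 (edgeR, adjusted p = 0.242).

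The leukocyte markers had values on the same side as miR-27a-5p. All 7 of them had positive log2 fold changes (6 with upper-quartile factors), against 50.8% of all tested miRNAs, with a median of 0.40. Of the 7, 1 passed, miR-142-5p (0.79; limma, adjusted p = 0.037), against 0.833% of all tested miRNAs. Its call was lost with upper-quartile factors, with no filter, at a mean of 10 CPM or more and with no variance trend (limma adjusted p-values of 0.053 to 0.099). It was also lost without control replicate 2, 3, 4 or 5 or feed-deprived replicate 1, 4 or 5, with limma adjusted p-values of up to 0.088. The summed level of the 7 ran from 43799 to 71853 normalised reads in control goats and from 58872 to 92991 in feed-deprived goats, and none of the 7 had a group mean of 0. Leukocyte markers were not alone on this side. The 3 tested red blood cell markers (median log2 fold change 0.62) and the 3 tested epithelial markers (median 0.29) were all higher too. No marker of either list passed, and 1 in each list changed sign under upper-quartile scaling.

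Feed-deprived replicate 1, the goat with the highest miR-27a-5p, was the highest of its group for 1 of the 7 leukocyte markers, miR-223, and lay below the group mean for 3, miR-142-3p, miR-150 and miR-146a. miR-223, a myeloid marker, was at 3458 normalised reads in that goat and at 595 to 963 in the other 5 feed-deprived goats, against a control mean of 294 ± 264 (SD, n = 5). Their part in the miR-27a-5p difference was not tested.

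The share of miR-27a reads that came from the 5p arm was 0.309% ± 0.0915 in control goats (SD, n = 5) and 0.729% ± 0.683 in feed-deprived goats (SD, n = 6), or 0.452% ± 0.0905 without feed-deprived replicate 1 (SD, n = 5). In controls it ran from 0.182% to 0.426% and in the feed-deprived goats from 0.346% to 2.11%. The highest share, in feed-deprived replicate 1, was 1661 of 78589 reads (95% Wilson interval 2.02% to 2.22%). The interval covers counting error only, since reads without molecular identifiers are not independent molecules. The 5p shares of the groups overlapped, unlike the 5p levels: 4 of 6 feed-deprived goats had a log2 ratio of 3p to 5p below all controls. This count was not particular to miR-27a among the 29 hairpins with both arms tested. miR-425 also had 4 goats below all controls, and miR-1388 and miR-99a had 4 above.

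The mean log2 ratio of miR-27a-3p to miR-27a-5p was 8.38 ± 0.464 in control goats (SD, n = 5) and 7.42 ± 0.964 in feed-deprived goats (SD, n = 6). The difference of -0.96 had an exact two-sided permutation p of 0.0325 and an adjusted p of 0.162 over the 5 ratios, and it did not pass. Without feed-deprived replicate 1 the difference was -0.58 (exact permutation p = 0.0476, adjusted p = 0.238). The smallest p that 5 against 6 goats can give is 0.0022.

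Arm ratios could be set side by side for the 29 hairpins with both arms named and tested. The miR-27a hairpin had the largest absolute difference between the groups of the 29, and the largest departure of feed-deprived replicate 1 from the rest of its group, at -2.27 on the log2 scale. The median absolute difference between the groups over the 29 hairpins was 0.16. Next came miR-424 at 0.43 and miR-21 at 0.38. Without feed-deprived replicate 1 miR-27a ranked 2 of the 29, behind miR-21 at 0.72. This ranking was chosen after the values of miR-27a were seen and is a description.

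**Figure D2:**
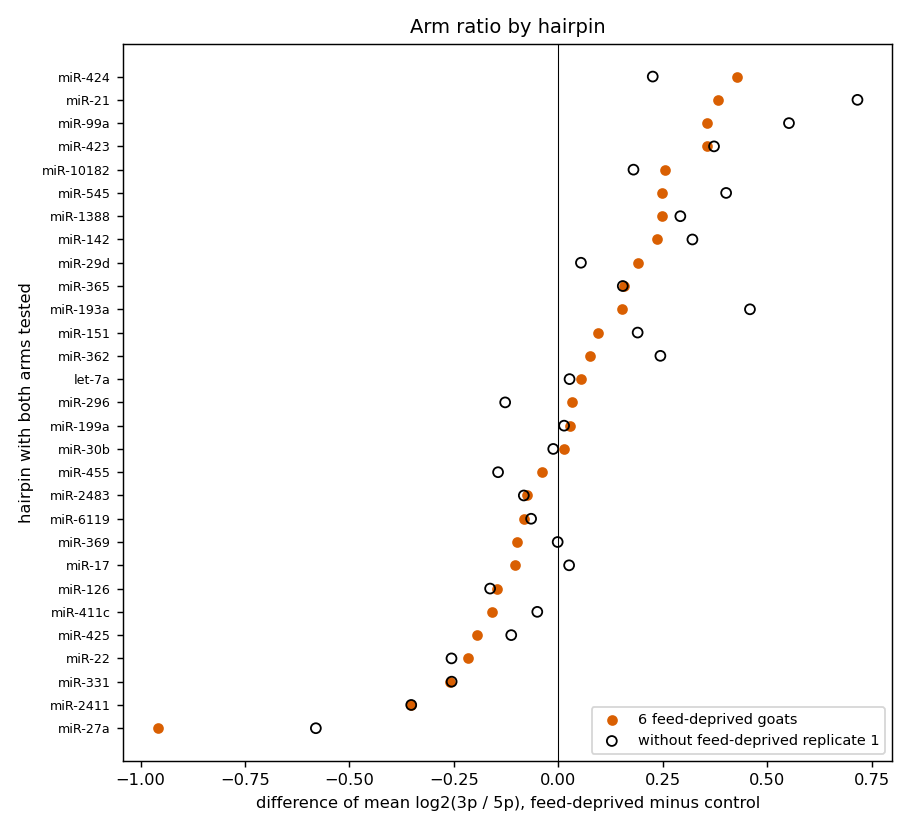
Difference between the groups in the mean log2 ratio of the 3p to the 5p arm, feed-deprived minus control, for the 29 hairpins with both arms tested (filled points: 6 feed-deprived goats; open points: without feed-deprived replicate 1). miR-27a has the lowest value, -0.96 with all goats and -0.58 without that replicate, while most hairpins lie close to 0.

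miR-23b-3p, from the cluster of miR-27b, had the lowest log2 fold change of the members. The controls had 65052, 63994, 44658, 28762 and 48133 normalised reads. The feed-deprived goats ran from 26601 through 34599 to 48950. Control replicates 3, 4 and 5 lay within the range of the feed-deprived goats, replicate 4 near its low end, so the groups overlapped. The means were 50120 ± 15045 in control goats (SD, n = 5) and 36276 ± 7579 in feed-deprived goats (SD, n = 6). The log2 fold change of -0.43 ± 0.214 did not pass (SE, limma unadjusted p = 0.0632, adjusted p = 0.474), and its 95% interval was -0.89 to 0.03. It was negative with every library left out in turn, from -0.62 (without control replicate 4) to -0.32 (without control replicate 1), and it was -0.27 with library totals.

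The endothelial markers had values on the same side as miR-23b-3p. All 3 of them, miR-126-3p, miR-126-5p and miR-218, had negative log2 fold changes of -0.20, -0.06 and -0.37 (2 of the 3 with library totals), against 49.2% of all tested miRNAs. None of the 3 passed (limma adjusted p-values of 0.642, 0.938 and 0.664), and over all tested miRNAs 0% passed as lower. Their summed level ran from 535221 to 642256 normalised reads in control goats and from 505460 to 614623 in feed-deprived goats. The 2 smooth muscle and mesenchymal markers, miR-143 and miR-145, were also negative, at -0.20 and -0.04 (1 of the 2 with library totals). The part of these markers in the miR-23b-3p values was not tested.

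miR-23a, from the cluster of miR-27a, was the least abundant of the main strands, at rank 48. The controls had 29465, 30728, 23208, 20806 and 24906 normalised reads. The feed-deprived goats ran from 19760 through 23546 to 29350. The groups covered nearly the same range. Their log2 difference was -0.11 ± 0.151 (SE; limma, adjusted p = 0.909), with a 95% interval of -0.43 to 0.22, and it was 0.06 with library totals as the only scaling.

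The 2 miR-23 forms stood closer to each other than the miR-27 forms. miR-23b-3p took 65.2% ± 4.21 of the reads of the pair in control goats (SD, n = 5) and 59.9% ± 6.80 in feed-deprived goats (SD, n = 6). It exceeded miR-23a in 10 of 11 libraries, the exception being feed-deprived replicate 1, where it held 43839 of 92208 reads or 47.5% (95% Wilson interval 47.2% to 47.9%). The log2 ratio of miR-23a to miR-23b-3p was -0.91 ± 0.262 in controls and -0.59 ± 0.405 after feed deprivation. The difference of 0.33 did not pass (exact permutation p = 0.154, adjusted p = 0.292), and it was 0.18 without feed-deprived replicate 1.

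miR-24-3p, which both clusters can supply, ranked 39. The controls had 63647, 45037, 66595, 44825 and 55877 normalised reads. The feed-deprived goats ran from 40329 through 46492 to 49590. Control replicates 1, 3 and 5 lay above all feed-deprived goats, and the other 2 controls lay among them. The means were 55196 ± 10156 and 45938 ± 3340 (SD). The log2 fold change was -0.25 ± 0.134 (SE, limma unadjusted p = 0.0855, adjusted p = 0.497), with a 95% interval of -0.54 to 0.04, and it did not pass. It was -0.085 with library totals and -0.43 with upper-quartile factors.

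The remaining members had few reads. The entry miR-24, whose arm its name does not give, had 30 to 131 reads per library. The controls had 85.5, 39.9, 119, 58.2 and 109.8 normalised reads, and the feed-deprived goats ran from 52.8 through 77.3 to 96.4. All feed-deprived goats lay inside the range of the controls. The log2 fold change was 0.0087 with an SE of 0.287 (limma, adjusted p = 0.990), and it was -0.22 without control replicate 2. miR-23b-5p, the minor arm of miR-23b, had 0 to 6 reads per library, 12 in all in controls and 9 after feed deprivation, so that no difference was detectable at this depth.

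**Figure D3:**
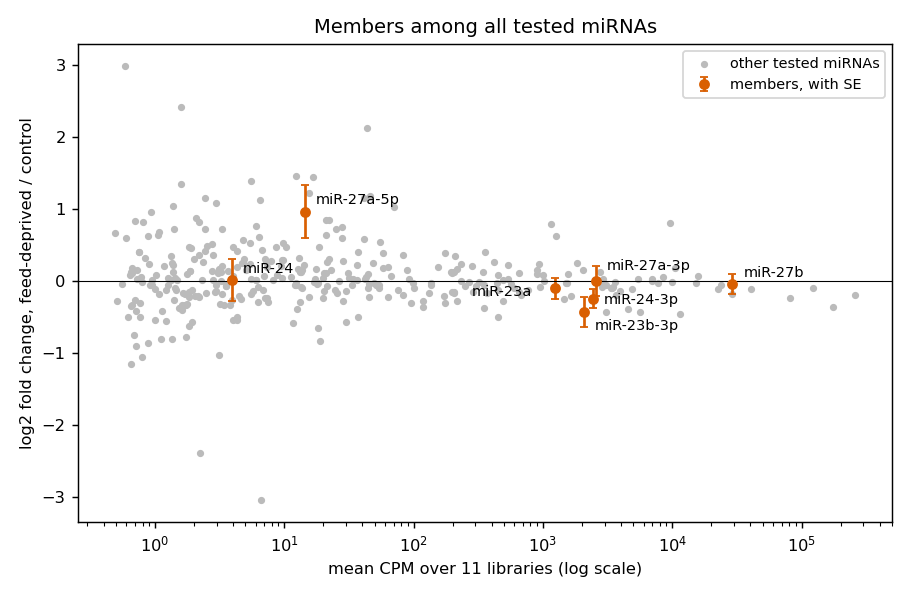
Log2 fold change, feed-deprived against control, over the mean CPM of 11 libraries (log scale) for the 360 tested miRNAs (grey) and the 7 tested members (orange, with SE). miR-23a, miR-23b-3p, miR-24-3p, miR-27a-3p and miR-27b lie between -0.43 and 0.0012, and miR-27a-5p lies at 0.96, at a mean of 14.3 CPM.

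In order of level over the 11 libraries the members ran miR-27b, miR-27a-3p, miR-24-3p, miR-23b-3p, miR-23a, miR-27a-5p, miR-24 and miR-23b-5p. The order of the neighbours miR-27a-3p and miR-24-3p varied between libraries: the former was higher in 6 of 11, and their log2 ratio was 0.04 ± 0.298 (SD, n = 11). miR-24-3p exceeded miR-23b-3p in 8 of 11 libraries, at a log2 ratio of 0.28 ± 0.384 (SD). Whether these neighbouring levels differ was not tested. The other neighbouring levels, miR-23b-3p above miR-23a apart, held their order in all 11 libraries. All members together took 3.64% ± 0.474 of miRNA reads in controls and 3.84% ± 0.441 after feed deprivation (SD).

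Partners within a cluster had no fixed proportion. The log2 ratio of miR-23a to miR-27a-3p was -0.99 ± 0.639 in controls and -1.10 ± 0.406 after feed deprivation (SD), and differed by -0.11 (exact permutation p = 0.779, adjusted p = 0.842). It turned to 0.16 without control replicate 2, the 1 goat in which miR-23a exceeded miR-27a-3p. The log2 ratio of miR-23b-3p to miR-27b was -3.65 ± 0.620 in controls and -4.04 ± 0.183 after feed deprivation, and differed by -0.39 (exact permutation p = 0.175, adjusted p = 0.292). It was -0.58 without control replicate 4 and -0.21 without control replicate 2.

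**Figure D4:**
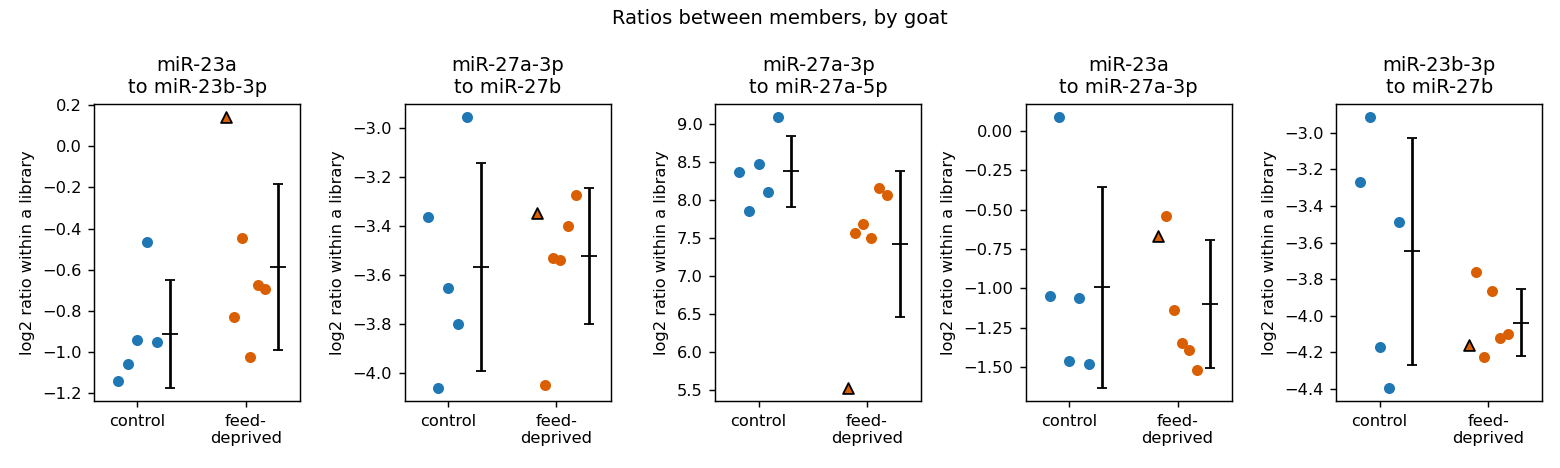
Log2 ratios between members within each library (points; the triangle is feed-deprived replicate 1), with the group mean and SD (black bars). In the panel of miR-27a-3p to miR-27a-5p feed-deprived replicate 1 lies lowest at 5.53, and in the panel of miR-23a to miR-23b-3p it is the 1 library above 0.

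Across the 11 goats, miR-23 and miR-27 of the same cluster had no detectable correlation. miR-23a and miR-27a-3p had a Pearson r of -0.38 (permutation p = 0.257, adjusted p = 0.540 over 21 pairs) and a Spearman rho of -0.25 (permutation p = 0.468, adjusted p = 0.832). Without control replicate 2 and feed-deprived replicate 4 r was -0.13, and with library totals as the scaling it was 0.09. miR-23b-3p and miR-27b had r of 0.11 (permutation p = 0.743, adjusted p = 0.839) and rho of 0.24 (permutation p = 0.484, adjusted p = 0.832). Without control replicates 1 and 2 that r was 0.51.

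The arms of miR-27a had r of 0.0042 (permutation p = 0.990, adjusted p = 0.990) and rho of -0.10 (permutation p = 0.776, adjusted p = 0.858), and r of -0.52 without control replicate 2 and feed-deprived replicate 2. Of the 21 pairs, 1 passed by Pearson's r and 0 by Spearman's rho. That pair was miR-24 and miR-27a-3p, with r of 0.82 (permutation p = 0.0023, adjusted p = 0.0489) and rho of 0.70 (permutation p = 0.0209, adjusted p = 0.219). Without control replicates 2 and 3 its r was 0.59, so the relation rests in part on those goats. Among the pairs that did not pass, miR-24 and miR-27b had r of 0.71 (permutation p = 0.015, adjusted p = 0.157) and rho of 0.59 (permutation p = 0.0612, adjusted p = 0.428), and r of 0.40 without control replicates 2 and 3. miR-24-3p and miR-27a-3p had r of 0.57 (permutation p = 0.0629, adjusted p = 0.264) and rho of 0.75 (permutation p = 0.00995, adjusted p = 0.209), and r of 0.48 without control replicates 1 and 3. All pairs of 1 library share its scaling factor.

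For each tested member the 2 most alike of the 184 other miRNAs that reached 10 CPM on average were taken by Pearson's r over the 11 libraries, as a description. miR-10174-3p followed miR-23b-3p with r of 0.998, and 0.997 on deviations from the group means. In each library it had 1.40 to 1.54 reads for each read of miR-23b-3p, and a fold change of -0.44 on the log2 scale (limma, adjusted p = 0.483), near the -0.43 of miR-23b-3p. Whether these 2 entries share reads or a sequence was not tested. After it came the endothelial miR-126-3p, at r of 0.75.

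miR-23a was followed by miR-211 with r of 0.95, at 0.993% to 2.43% of its reads, and by miR-139 with r of 0.80. miR-27a-3p was followed by miR-34a (0.87) and miR-30e-5p (0.81). miR-27a-5p was followed by miR-132 (0.87) and miR-17-5p (0.84), with values of 0.68 and 0.66 over the 10 libraries other than feed-deprived replicate 1. miR-132, which did not overlap between the groups either, went from 443 ± 98.5 to 1079 ± 634 normalised reads (SD), which is 1.15 on the log2 scale (limma, adjusted p = 0.093).

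**Figure D5:**
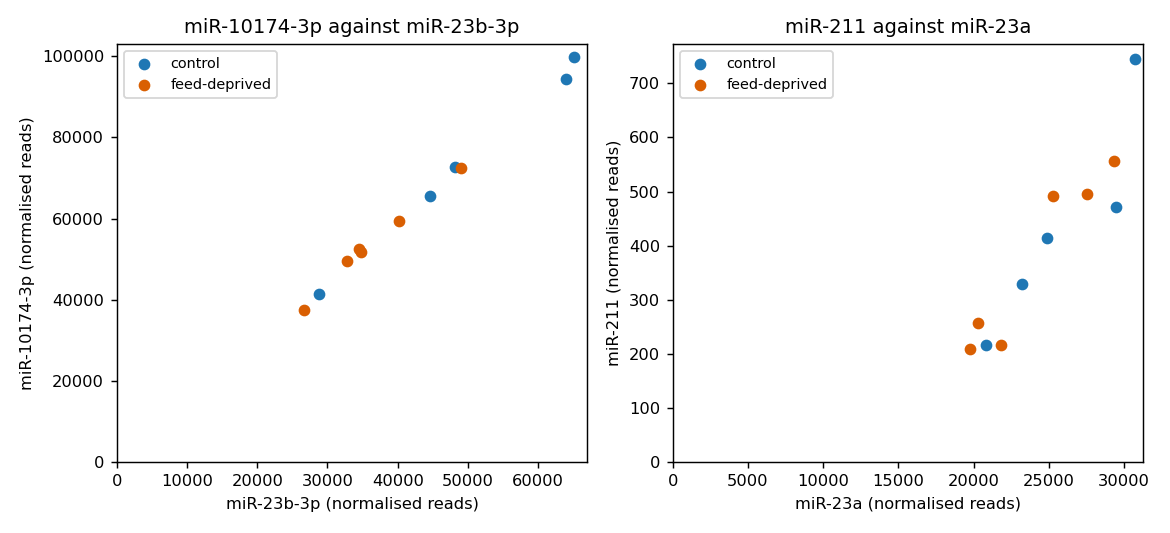
Normalised reads of miR-10174-3p against miR-23b-3p (left) and of miR-211 against miR-23a (right), 1 point per goat, on linear axes from 0. The left panel lies close to 1 line through controls and feed-deprived goats, with 1.40 to 1.54 reads of miR-10174-3p per read of miR-23b-3p.

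Among 7 miRNAs reported in mammalian cells to repress PPARG, which include miR-27a-3p and miR-27b, 0 passed in either direction (background 0.833% higher and 0% lower). Of the 7, 6 had positive log2 fold changes (2 with upper-quartile factors), against 50.8% of all tested miRNAs. The median was 0.13 against 0.0040 over all tested miRNAs. The 6 include miR-27a-3p at 0.0012 and miR-130a at 0.01, both near 0. The list's summed level ran from 528364 to 883450 normalised reads in control goats and from 535066 to 717878 in feed-deprived goats, and most of it was miR-27b. The other members had log2 fold changes of 0.84 for miR-130b (limma adjusted p = 0.289), 0.61 for miR-301b, 0.16 for miR-128, 0.13 for miR-301a and 0.01 for miR-130a. miR-130b, the highest of them, was at 283 ± 106 normalised reads in the fed goats and 507 ± 222 in the feed-deprived ones (SD), far below miR-27b.

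The libraries carried the miRNAs of a mesenchymal tissue with vessels and blood. miR-143 had a mean of 5875370 normalised reads in controls. Liver miR-122 and the epithelial and striated muscle markers were low, at summed levels of up to 147, 707 and 4398 normalised reads in any library. Red blood cell markers ran from 116344 to 331505 in controls and from 131837 to 348041 after feed deprivation.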

How the data were processed

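The authors deposited 1 normalised signal per mature miRNA and library, for 11 libraries of separate goats. The tools used for trimming, alignment and normalization, and the miRNA database, are not stated in the labels used here. Per the labels' protocols, libraries were made with a TruSeq small RNA kit and 13 PCR cycles and read as single reads of 50 bases. The names are bovine, so goat reads that differ from the bovine sequence may be undercounted, and near-identical paralogs may share reads. Some pairs of names outside the members had the same count in every library, such as miR-2284aa with miR-2284z and miR-1814c with miR-2310. Whether the members share reads with each other was not tested. Every deposited signal value was a whole multiple of the smallest non-zero value of its library, within 0.001 read, for 100% of non-zero values, which gave read counts. These ran from 16974441 to 25389788 per library, so that the abundant members carry little counting error, and those with few reads carry more.

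Feed-deprived replicate 1 listed 629 names, and each other library listed 637. Among the names missing from its list was miR-127, with 54887 to 148388 reads in the other libraries. Of the 629 miRNAs common to every list, 360 passed edgeR's filterByExpr (minimum count 10). log2(signal + 1), the pseudocount being 1, was compared between the groups with limma (two-sided, with a variance trend and robust moderation), and p-values were adjusted over the 360 by Benjamini-Hochberg with a threshold of 0.05. On this scale the fold change of a miRNA with few reads is understated. Ratios within a library were compared by an exact two-sided permutation test, and correlations by 100000 permutations. The limma and permutation steps were tested on simulated data. Alternatives were edgeR, DESeq2 and voom on the recovered reads, 3 other scalings, pseudocounts of 0.5 and 8, other filters, no variance trend, and each library left out in turn. R 4.3.3, limma 3.58.1, edgeR 4.0.16, DESeq2 1.42.0, Python 3.11.15 and scipy 1.17.1 were used.

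The members, the ratios and the lists (PPARG, cell type markers) were chosen with earlier results of these data known. miRNAs were named by rule: all members, the 2 non-members most correlated with each, and the members of the PPARG list. Other miRNAs named were chosen after their values were seen. Replicates were numbered in accession order, which pairs nothing. The labels give no batch.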

Additional observations from a re-analysis of the deposited data

Results flagged for a closer look

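In 24 sets of values, each of 1 group, a single goat standing well apart was looked for and found in 4. The cut-off is one that about 1 in 20 independent sets of normally distributed values would pass by chance. These sets share members and goats, and the first 2 below share the miR-27a-5p value of 1 goat. The count of 4 therefore cannot be compared with that rate. Feed-deprived replicate 1 had 1008 normalised reads of miR-27a-5p, against 199 to 276 in the other 5 feed-deprived goats. The same library had a log2 ratio of miR-27a-3p to miR-27a-5p of 5.53, against 7.50 to 8.16. Feed-deprived replicate 2 had a log2 ratio of miR-27a-3p to miR-27b of -4.05, against -3.54 to -3.27. Control replicate 2 had a log2 ratio of miR-23a to miR-27a-3p of 0.088, against -1.48 to -1.05 in the other controls.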

How the results depend on the processing

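None of the 7 tested members and none of the 5 ratios passed under any alternative that gave a p. DESeq2 gave no p for miR-27a-5p. miR-23b-3p and miR-24-3p stayed negative and miR-27a-5p positive in all of them. The signs of members near 0 turned. miR-23a was 0.056 and miR-27b 0.12 with library totals. miR-24 was -0.17 with upper-quartile factors, -0.086 in edgeR, -0.093 in DESeq2 and -0.036 in voom, and miR-27a-3p was -0.18, -0.056, -0.063 and -0.016 in the same 4 settings. Library totals moved the median of all miRNAs to 0.16 and upper-quartile factors to -0.17. Leaving out 1 library gave log2 fold changes of -0.22 to 0.17 for miR-24, -0.20 to 0.11 for miR-27a-3p and -0.12 to 0.062 for miR-27b. It gave differences of -0.080 to 0.20 for the ratio of miR-27a-3p to miR-27b and -0.23 to 0.16 for that of miR-23a to miR-27a-3p. The number of miRNAs called higher was 7 with library totals, 0 at a mean of 10 CPM or more and 9 in DESeq2, and 1 to 4 with 1 library left out. The number called lower was 1 with library totals, upper-quartile factors and voom, and 0 to 1 with 1 library left out. No paired analysis was possible because the labels give no replicate numbers that the groups share. Depth limits miR-23b-5p, with at most 6 reads in a library.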

Other observations

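miR-24 was followed across the 11 libraries by miR-29c (Pearson r of 0.79) and miR-29a (0.77), miR-24-3p by miR-99a-5p (0.68) and miR-874 (0.67), and miR-27b by miR-338 (0.70) and miR-192 (0.69), as descriptions that share the scaling of each library.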
